A study of Mus musculus with 9 samples.

Results

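The genes described here carry symbols of families that run the cell cycle, copy the genome and shape the chromosomes, though some share only names. Their introns were chosen by gene symbol alone, from the symbol stems of cyclins and their kinases, CDC proteins, origin recognition and MCM proteins, DNA polymerases alpha, delta and epsilon, SMC, condensin and cohesin proteins, centromere proteins, the anaphase-promoting complex, mitotic checkpoint and kinase genes and E2F factors. The genes Cdc5l, Cdc40, Mcmbp and the Cdc42 family were left out. The rule gave 601 introns of 152 genes, out of 22228 introns of 7016 genes in the authors' deposited table. The rule uses no measured value, though it was written with earlier results of these data known.

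The cells were v6.5, a line of mouse embryonic stem cells, grown on gelatin in medium with serum and ESGRO. They received KH-CB19, which inhibits the Clk kinases, or only its solvent dimethyl sulfoxide (DMSO), and were harvested at 0 h or at 2 h. Each of the 4 groups held 2 libraries of polyadenylated RNA, which the labels call independent replicates, and the table gives only the mean of each group. A spread between replicates therefore cannot stand beside any value, and each adjusted p is the authors' own; unadjusted ones are not part of the table. An untreated library was not analysed here. Of 16 embryonic stem cell markers 15 had introns in the table, of 11 fibroblast markers only Fn1 did, and of 13 markers of germ layers and trophoblast 0 did.

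Cyclins bind cyclin-dependent kinases and switch them on, and each pair drives one step of the cycle. The origin recognition complex and the MCM helicase prepare replication origins, polymerases copy the strands, cohesin holds the copies together, condensin compacts them, and the anaphase-promoting complex marks securin and mitotic cyclins for destruction, after which separase cleaves cohesin. Embryonic stem cells divide fast and pass through a short G1 phase. A detained intron is one that stays in polyadenylated RNA while the other introns of the transcript are already removed. Clk kinases phosphorylate SR proteins, which bind RNA and guide the choice of splice sites.

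Of the 601 introns, 116 in 74 genes were classed as detained by the authors, and these alone have values at 2 h. After 2 h of KH-CB19, 6 of them held more reads and 5 held fewer at an adjusted p below 0.05, where 5.47% of all detained introns rose and 4.17% fell. The sequences below show, for those of the 11 that were matched to GENCODE M21 (build GRCm38) by gene, strand and exact intron length, the exon junction that forms when the intron is removed. Capitals mark the last 15 bases of the upstream exon and lower case the first 15 of the downstream exon, read 5′ to 3′ in the direction of the gene. Orc3 and Anapc1 lie on the minus strand and the others on the plus strand, and all intron coordinates below are those of the files, on mm9.

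Ncapg intron 17: TCTCAGGATTATCAGgccttaacagtacat

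Orc3 intron 5: CTAAGGATTGTCCCGatgtgaaacattttt

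Orc3 intron 16: TATCACCTTCAGAAGtccttactagaaatg

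Smc1a intron 21: TGTGAAGATCTGAAGgatgcacaggcggag

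Mcm3ap intron 8: CCGCTGGGATTGAAGgtggaccatgcagca

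Ccnk intron 8: AGAACAAAGCTACAGaaccaccaccaccac

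Anapc1 intron 44: AGAACAGCACTTGAGgtctattctttcgaa

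Cdc25a intron 12: GGAGATTTCTCCAAGggttatctctttaat

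Mcm5 intron 14: ACACAGATGGCTCTGgccgaagctttgctg

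The first 4 belong to introns that fell and the other 5 to introns that rose. In 7 of these 9 junctions the upstream exon ended in the letters AG, in 3 of the 4 that fell and in 4 of the 5 that rose. Over all matched introns of these genes, 65 of 101 detained introns (64.4%) and 229 of 454 others (50.4%) followed an exon ending in AG, a description with no test. Of the 9 introns, 8 lay between coding exons and that of Mcm3ap matched a transcript annotated as non-coding. Ccnt2 intron 5 and Orc6 intron 5, the remaining 2 of the 11, were not matched to an intron of their gene in GENCODE M21.

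At 0 h the table sets the observed mean reads of each intron against the number the authors expected. How the expected reads were made is not given in the sources used here. For Anapc13 intron 2 and Ccnj intron 2, each alone of its gene in the table, observed and expected reads in DMSO were equal (26.5 and 14). Ccnd1 intron 3, also alone, had 105.5 observed and 60.5 expected, but introns outside the table could not be counted in. Aurkaip1 introns 2, 3 and 6, all of that gene in the table, had 21, 23 and 1133 observed reads in DMSO. Their expected reads in DMSO were 397, 495.5 and 285. Whether expected reads share out the reads of a gene among its introns was not tested. In the DMSO group 583 of the 601 introns had values, from 10 to 1133 observed reads with a median of 28 per the authors' deposited table, and the others were marked as having low coverage. Above expectation at an adjusted p below 0.05 were 188 of the 583 (32.2%), against 28.2% of all introns with a value. Below expectation were 65 (11.1%, against 10.9%). In the KH-CB19 group at 0 h, 514 introns had values, of which 148 were above expectation (28.8%, against 27.6% over the table) and 48 below (9.34%, against 8.93%). Both groups thus lay near the shares of the whole table.

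The detained class took 116 of the 601 introns (19.3%), against 15.5% of the table, and 48.7% of these genes had at least 1 such intron against 34.6% of all genes. These genes had more introns per gene in the table (601 in 152 genes, against 22228 in 7016). The share of genes was not adjusted for this. Among introns with at least 50 observed reads in DMSO at 0 h, 90 of 163 were detained (55.2%), against 42.6% of such introns in the whole table. Excess over expectation was past the threshold in DMSO at 0 h for 115 of the 116, with a median of 3.39-fold against 3.56-fold over all detained introns of the authors' deposited table. The exception was Pole2 intron 18, named after its values were seen, with 25 observed and 10.5 expected reads per the authors' deposited table (adjusted p = 0.0574). If the class drew on these ratios, the excess follows from the class. Among the 467 members with a DMSO value that were not classed as detained, 73 were above and 65 below expectation. Over all genes, 2678 of 18115 introns with a DMSO value and outside the detained class were above expectation and 2350 were below. The members were not tested against these counts.

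Ccne1 intron 16 stood highest for its expectation among introns with at least 100 reads, observed and expected together. Ccne1 encodes cyclin E1, the partner of Cdk2 at the entry into S phase, and this intron spans 121 bp (mm9, chr7:38883341-38883461). It had 969.5 observed and 31.5 expected reads in DMSO and 894.5 and 27.5 in KH-CB19 at 0 h per the authors' deposited table, log2 ratios of 4.94 and 5.02. Smc5 intron 18, in a gene of a chromosome repair complex, followed with 255 observed and 17 expected reads in DMSO and 186 and 13 in KH-CB19 per the authors' deposited table (log2 ratios 3.91 and 3.84). Mcm2 intron 15, in a gene of the replicative helicase, had 492 and 36.5 reads in DMSO and 606.5 and 42 in KH-CB19 per the authors' deposited table (log2 ratios 3.75 and 3.85). Ccne1 stood first in both groups, while Smc5 and Mcm2 lay close together and changed places between them. The other Ccne1 introns with values, 5, 8, 11, 12 and 15, lay below expectation in DMSO at 0 h, at log2 ratios from −3.60 to −1.68. Ccne1 intron 16 and Mcm2 intron 15 were not matched to a GENCODE M21 intron of their gene.

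The lowest ratios at 0 h belonged to introns that were not classed as detained. Introns 3 and 2 of Aurkaip1, whose product binds the mitotic kinase Aurora A and also works in mitochondrial ribosomes, had 23 observed against 495.5 expected and 21 against 397 reads in DMSO per the authors' deposited table (log2 ratios −4.43 and −4.24). Intron 6 of the same gene was detained, with 1133 observed and 285 expected reads in DMSO per the authors' deposited table. Anapc5 intron 6, in a subunit gene of the anaphase-promoting complex, had 13 observed and 169.5 expected reads (log2 ratio −3.70) per the authors' deposited table. Introns 12 and 13 of Anapc5 were detained, with 381 observed and 77.5 expected and with 236 observed and 60 expected reads per the authors' deposited table. Within Aurkaip1 and Anapc5 the introns lay on both sides of expectation, at a log2 ratio of 1.99 for Aurkaip1 intron 6 and of 2.30 for Anapc5 intron 12 per the authors' deposited table. If the expected reads share out the reads of a gene among its introns, a high intron lowers the ratios of the others. The low ratios would then follow from the high ones and are no separate observation.

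**Figure D1:**
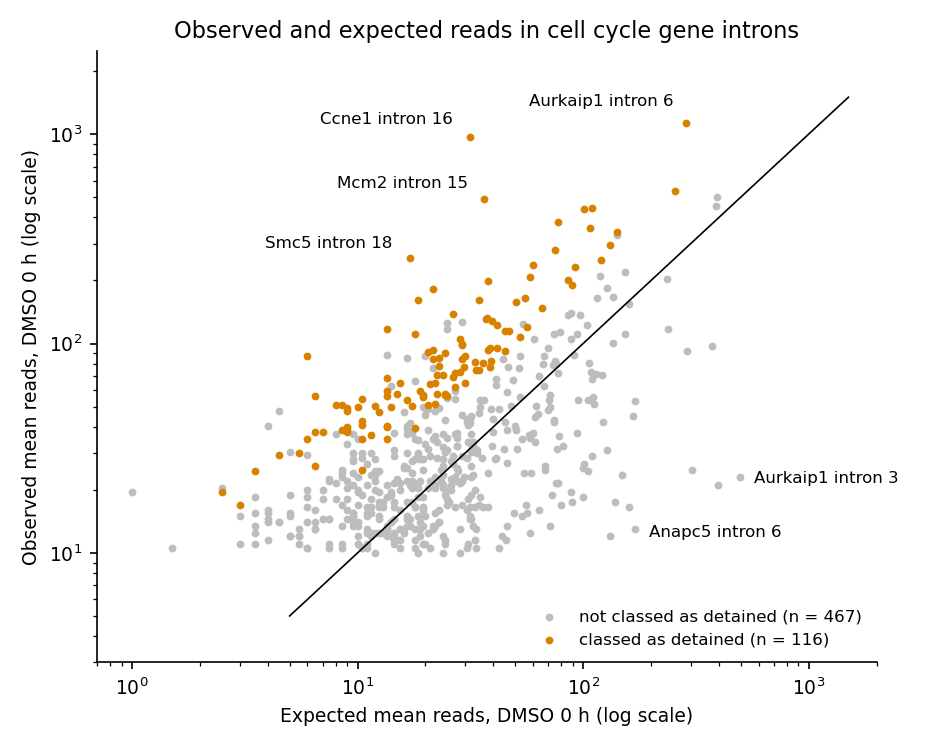
Observed (vertical) and expected (horizontal) mean reads per intron in the DMSO group at 0 h, both on log scales, for the 583 introns with a value; the line marks equality. Detained introns lie above the line, with Ccne1 intron 16 at 969.5 observed and 31.5 expected reads, and introns 3 of Aurkaip1 and 6 of Anapc5 lie far below it.

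At 2 h the question was which detained introns change when Clk is inhibited. Of the 116 introns 6 rose (5.17%) and 5 fell (4.31%), and over all 3454 detained introns 5.47% rose and 4.17% fell. Both shares are close to those of the table, so the number of changes says nothing particular about these genes. The counts of the single lists below are small and were not tested against these shares. The median log2 ratio was 0.07, against 0.00 over all detained introns, and single introns ran from −2.47 to 1.35 per the authors' deposited table. No exon or whole-gene counts were used here, so more or fewer reads in an intron and more or less of the transcript cannot be told apart. A mean of at least 50 normalised reads over the 2 groups was held by 2 of the 5 falls and all 6 rises. That contrast depends partly on the direction of change. Mcm3ap intron 8 and Anapc1 intron 44, which rose, had 29.2 and 36.4 reads in DMSO at 2 h. Ncapg intron 17 and Orc3 intron 16, which fell and were under that mean, had 51.0 and 55.3. Both counts thus rest partly on thinly covered introns.

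Cyclins, cyclin-dependent kinases, their inhibitors and the binding proteins that share their symbol stems had 98 introns of 32 genes in the table. Among their 12 detained introns 0 rose and 0 fell, against 5.47% and 4.17% of all detained introns. Their median log2 ratio was 0.38, with 3 of the 12 below 0, and the range ran from −0.34 to 0.69 per the authors' deposited table. Of the 12, 4 belong to the binding protein genes Ccnb1ip1, Cdk5rap2 and Cdk5rap3, and without them, a choice made after seeing the data, the median of the other 8 was 0.33, with 3 below 0. Ccne1 intron 16 had 828 normalised reads in DMSO and 1024 in KH-CB19 per the authors' deposited table (log2 ratio 0.31, adjusted p = 0.306). Cdk1, the kinase of mitotic entry, had intron 7 at 229 and 181 reads (log2 ratio −0.34) and intron 13 at 67.9 and 105 reads (log2 ratio 0.63), with adjusted p of 0.409 and 0.156 per the authors' deposited table. Intron 10 of Cdk7, the kinase that activates other cyclin-dependent kinases, had 173 and 222 reads (log2 ratio 0.36, adjusted p = 0.381) per the authors' deposited table. The cyclin genes Ccna2, Ccnb1, Ccnd1 and Ccnd3 had introns in the table and no detained one.

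Cyclins and kinases that act on RNA polymerase II or on splicing share the names but not the cell cycle role. Listed together with Cdc73, which is neither a cyclin nor a kinase, they had 54 introns, of which 8 were detained. Intron 8 of Ccnk, the cyclin partner of Cdk12 and Cdk13 (mm9, chr12:109434583-109437518), had 132 normalised reads in DMSO and 314 in KH-CB19 at 2 h per the authors' deposited table. That is 2.38-fold higher, with an adjusted p of 2.15e-06 per the authors' deposited table, the smallest among the 116 introns. Intron 5 of Ccnt2, a cyclin partner of Cdk9 in transcript elongation (chr1:129691895-129694209), fell from 293 to 177 reads per the authors' deposited table, 1.66-fold lower (adjusted p = 0.0423). Introns 7 and 8 of Ccnt2 had log2 ratios of −0.64 and −0.46 per the authors' deposited table and did not pass (adjusted p = 0.363 and 0.212). Intron 4 of Ccnl1, a cyclin of splicing factors, had 468 and 505 reads and intron 8 of Cdk8, a Mediator kinase, 238 and 264, with adjusted p of 0.832 and 0.792 per the authors' deposited table. The median log2 ratio of the 8 was −0.46, and 5 of them were below 0. Ccnk and Ccnt2, both cyclins of transcription kinases, thus passed in opposite directions.

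The CDC25 phosphatases, E2F factors and other regulators had 15 detained introns among 71. Of these 1 rose (6.67%) and 0 fell, against 5.47% and 4.17% of all detained introns. Intron 12 of Cdc25a, the phosphatase that removes inhibitory phosphates from cyclin-dependent kinases (chr9:109789851-109791377), went from 53.7 to 102 reads, 1.89-fold higher, per the authors' deposited table (adjusted p = 0.0253). Intron 16 of Cdc25a had 63.3 and 70.8 reads (log2 ratio 0.16, adjusted p = 0.872) per the authors' deposited table. Intron 15 of E2f4, a mostly repressive E2F factor, had 221 and 308 reads (log2 ratio 0.48, adjusted p = 0.199) per the authors' deposited table. Intron 11 of Cdc7, the kinase that fires licensed origins, had 139 and 134 reads, and intron 15 of Cdca2, which brings a phosphatase to anaphase chromatin, 140 and 151, with adjusted p of 0.969 and 0.922 per the authors' deposited table.

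Replication genes held 34 detained introns among 134 (25.4%, against 15.5% of the table, not tested). Of the 34, 3 rose (8.82%, against 5.47% of all detained introns) and 2 fell (5.88%, against 4.17%). Intron 14 of Mcm5, a helicase subunit (chr8:77639918-77641420), went from 283 to 499 normalised reads, 1.76-fold higher, per the authors' deposited table (adjusted p = 0.00103). Intron 8 of Mcm3ap, whose product binds Mcm3 and also takes part in messenger RNA export (chr10:75944257-75945368), went from 29.2 to 74.5 reads, 2.55-fold higher, per the authors' deposited table (adjusted p = 0.00251). Intron 5 of Orc6, a subunit of the origin recognition complex (chr8:87825039-87826694), rose from 231 to 383 reads per the authors' deposited table, 1.65-fold (adjusted p = 0.00668). All 3 had more reads in KH-CB19 than in DMSO, while the falls of the list were both in another subunit gene of the origin recognition complex.

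Orc3 is that gene, and each of its 3 detained introns had fewer reads in KH-CB19. Intron 5 (chr4:34546006-34546952) fell from 30.9 to 8.75 normalised reads, 3.53-fold lower, per the authors' deposited table (adjusted p = 0.013). Intron 16 (chr4:34523699-34525201) fell from 55.3 to 19.01 reads, 2.91-fold lower, per the authors' deposited table (adjusted p = 0.00355). Intron 6 had 47.4 and 23.6 reads per the authors' deposited table, a log2 ratio of −1.005 that did not pass (adjusted p = 0.101). At 0 h introns 5, 6 and 16 of Orc3 had 35.5, 36.5 and 46 observed reads in KH-CB19 and 47, 59.5 and 64.5 in DMSO per the authors' deposited table. Expected reads were lower in KH-CB19 at 0 h over the whole table as well, with a median log2 ratio of −0.33 to DMSO. Relative to the expected reads, the log2 ratios in DMSO and KH-CB19 at 0 h were 1.91 and 2.06 for intron 5, 2.14 and 1.94 for intron 6 and 2.06 and 2.06 for intron 16 per the authors' deposited table. The other subunits went several ways without passing: Orc2 introns 11, 21 and 22 had log2 ratios of −0.98, 0.25 and 0.60 per the authors' deposited table (adjusted p = 0.07, 0.733 and 0.207). Whether the introns of Orc3 and Orc6 differ in response was not tested.

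Of the 34 replication introns 29 did not pass. Mcm2 intron 15, with the most observed reads of the list at 0 h, had 531 and 559 normalised reads at 2 h per the authors' deposited table (log2 ratio 0.07, adjusted p = 0.904). Mcm10 intron 17, named after its values were seen, had 57.2 and 121 reads per the authors' deposited table, a log2 ratio of 1.07 with an adjusted p of 0.413. It and intron 6 of Orc3 were the 2 introns of the 116 that differed by more than 2-fold without passing. Mcm7, another helicase subunit gene, had 6 introns in the table and no detained one. Its intron 17 still lay above expectation in DMSO at 0 h (log2 ratio 1.20, adjusted p = 9.03e-05) per the authors' deposited table. The other Mcm7 introns did not pass there.

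Cohesin, condensin and the other SMC genes held 24 detained introns among 84 (28.6%, against 15.5% of the table, not tested). Of the 24, 0 rose (against 5.47% of all detained introns) and 2 fell (8.33%, against 4.17%). Intron 17 of Ncapg, a condensin subunit gene (chr5:46085166-46086892), fell from 51.0 to 9.24 normalised reads per the authors' deposited table (log2 ratio −2.47, adjusted p = 1.67e-05). Intron 21 of Smc1a, a core subunit gene of cohesin, spans 10810 bp (chrX:148482512-148493321), and no other detained intron of these genes was longer. It fell from 385 to 190 reads per the authors' deposited table, 2.02-fold lower (adjusted p = 5.72e-05). The ratio of Ncapg intron 17 thus rests on far fewer reads than that of Smc1a intron 21.

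Fewer reads in KH-CB19 than in DMSO was the common sign among the introns of this list, in 18 of the 24, against 1732 of 3454 (50.1%) over all detained introns. The 24 introns came from only 12 genes, and introns of 1 gene are not replicates. Of those below 0, Ncapg and Stag3 held 4 each, Ncapd2 held 3, and Smc2, Smc4 and Smc6 held 2 each. The median log2 ratio was −0.33, against 0.00 over all detained introns, and the difference of the list from the table was not tested. In a list of other cohesin and chromosome structure genes, outside the symbol rule, 11 of 16 detained introns were below 0. Their median log2 ratio was −0.17. Condensin gene Ncapd2 had log2 ratios of −0.46, −0.64 and −0.23 in introns 22, 23 and 35 per the authors' deposited table (adjusted p = 0.27, 0.314 and 0.825). Of 5 detained introns of Stag3, the subunit of meiotic cohesin, introns 8, 11, 24 and 34 had log2 ratios of −0.69, −0.81, −0.50 and −0.47 and intron 26 of 0.19 per the authors' deposited table, with adjusted p from 0.291 to 0.965. Smc5 intron 18 went the other way, with 204 and 229 reads (log2 ratio 0.17, adjusted p = 0.821) per the authors' deposited table. The cohesin gene Rad21 had 7 introns in the table and Stag1 had 4, and neither gene had a detained one.

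Centromere and kinetochore genes had 5 detained introns among 56 (8.93%, against 15.5% of the table, a difference not tested). Of the 5, 0 rose and 0 fell, against 5.47% and 4.17% of all detained introns. Intron 5 of Cenph, an inner kinetochore subunit gene, had 115 and 169 reads (log2 ratio 0.55, adjusted p = 0.151) per the authors' deposited table. Introns 10 and 9 of Cenpn, whose product binds centromeric nucleosomes, had log2 ratios of −0.13 and −0.07 per the authors' deposited table (adjusted p = 0.863 and 0.983). Cenpc1 had 7 introns in the table, and none was detained. Introns 9 and 16 of Cenpc1 still lay above expectation in DMSO at 0 h (adjusted p = 0.0247 and 0.00047) per the authors' deposited table. The other Cenpc1 introns did not pass there.

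The anaphase-promoting complex, checkpoint and mitotic kinase genes had 17 detained introns among 91. Of these 1 rose (5.88%) and 0 fell, against 5.47% and 4.17% of all detained introns. Intron 44 of Anapc1, a scaffold subunit of the complex (chr2:128448248-128449231), went from 36.4 to 73.4 reads, 2.02-fold higher, per the authors' deposited table (adjusted p = 0.0295). Anapc1 introns 22, 43 and 47 had log2 ratios of −0.62, 0.63 and −0.10 per the authors' deposited table and did not pass (adjusted p = 0.38, 0.506 and 0.994). Intron 12 of Anapc5 had 350 and 279 reads and intron 13 had 197 and 196, with adjusted p of 0.366 and 1 per the authors' deposited table. Introns 11, 12 and 14 of Cdc16, another subunit gene, had log2 ratios of 0.07, −0.05 and −0.47 per the authors' deposited table (adjusted p = 0.99, 1 and 0.436). Plk1, Aurkb and Cdc20, central mitotic genes, had 3 introns each in the table and no detained one.

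**Figure D2:**
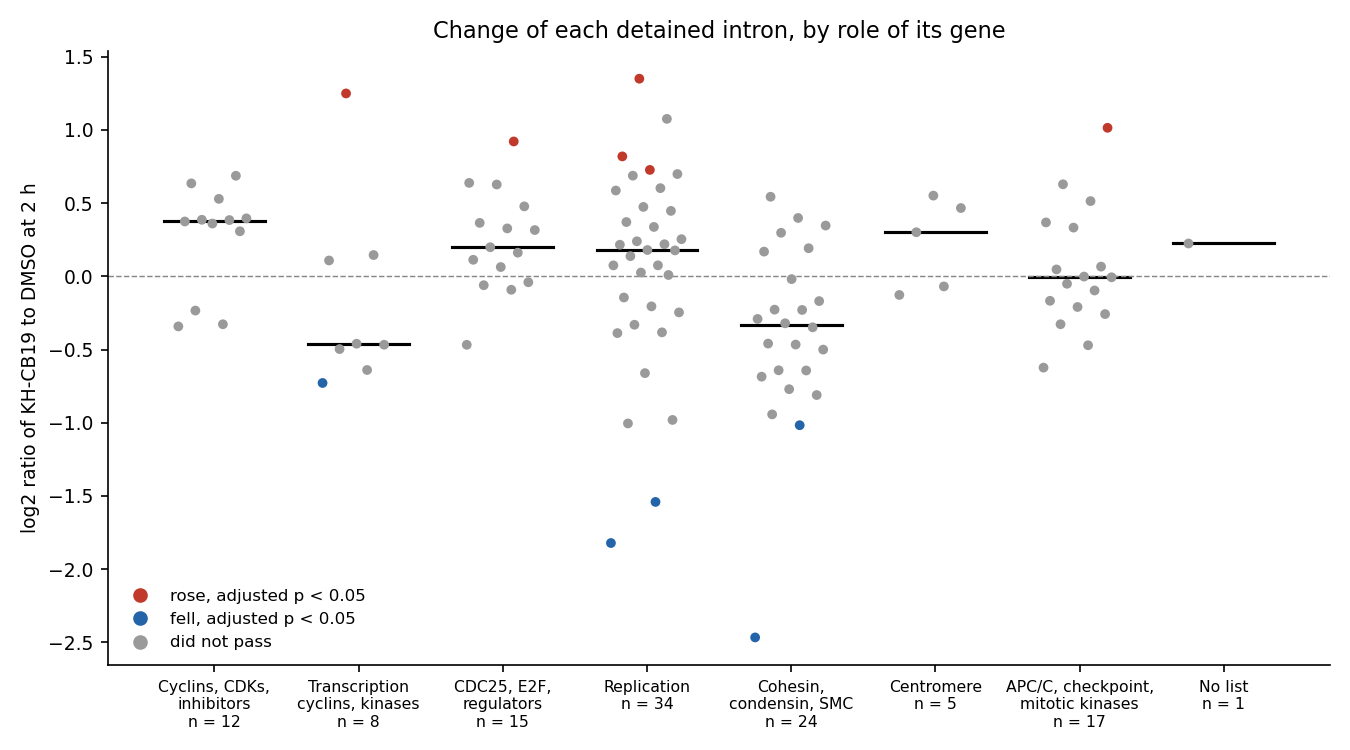
log2 of KH-CB19 over DMSO reads at 2 h (vertical) of each of the 116 detained introns, in columns by the role of the gene; bars mark the median of the column, red points rose and blue points fell at an adjusted p below 0.05. The cohesin, condensin and SMC column, with points from 12 genes, has its median at −0.33 and 18 of 24 points below 0. The cyclin and kinase column, binding proteins included, has its median at 0.38.

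**Figure D3:**
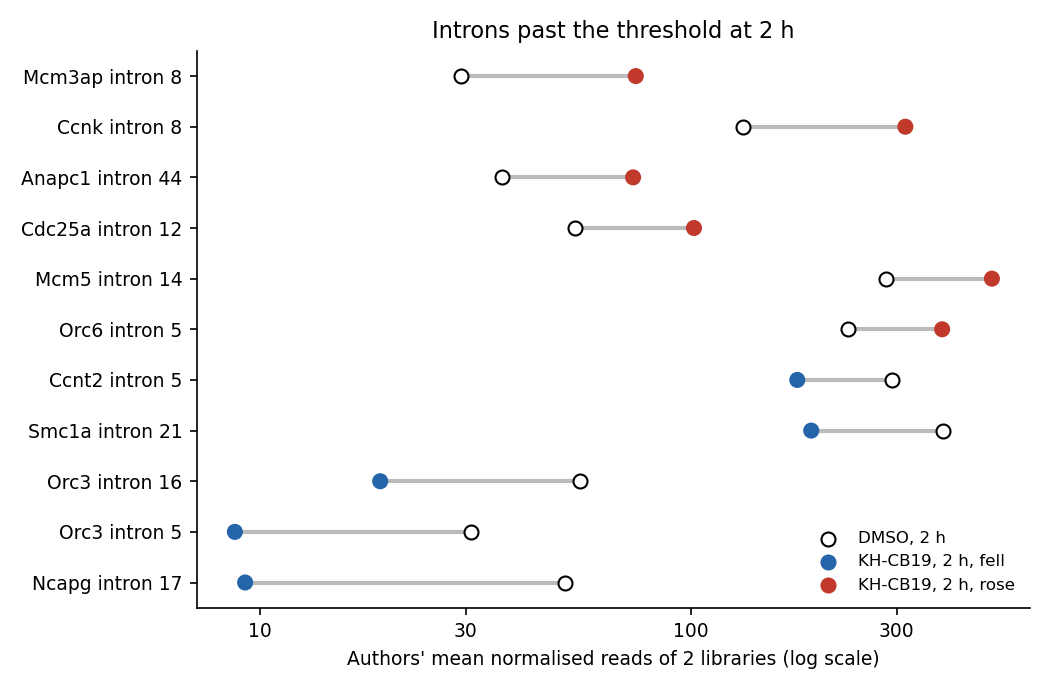
The authors' mean normalised reads (horizontal, log scale) in DMSO (open points) and KH-CB19 (filled points) at 2 h for the 11 introns past the threshold; no error bars are drawn because only group means were used. Ncapg intron 17 and Orc3 intron 5 end below 10 reads in KH-CB19, and Mcm5 intron 14 is the highest, at 499.

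Several introns of 1 gene gave a further view of the change. Of the 74 genes 44 had 1 detained intron, 22 had 2, 5 had 3, 2 had 4 and Stag3 had 5. Among the 30 genes with at least 2, all log2 ratios were below 0 in 11, all above 0 in 11 and of both signs in 8. With only 2 introns in 22 of these genes, a shared sign is easily met. The same count was not made over the other genes of the table, so it shows nothing particular about these genes. Introns of 1 gene share transcripts and libraries and are not replicates. In Ncapg all 4 were below 0, but intron 17 stood at −2.47 while introns 14, 16 and 20 stood at −0.17, −0.77 and −0.23 per the authors' deposited table (adjusted p = 0.831, 0.414 and 0.798). The neighbour of intron 17, intron 16 of Ncapg, had 27.2 and 15.9 normalised reads per the authors' deposited table. In Ncapg the ratios thus lay far apart, whereas in Orc3 the 3 ratios lay between −1.82 and −1.005; the differences between introns of a gene were not tested.

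**Figure D4:**
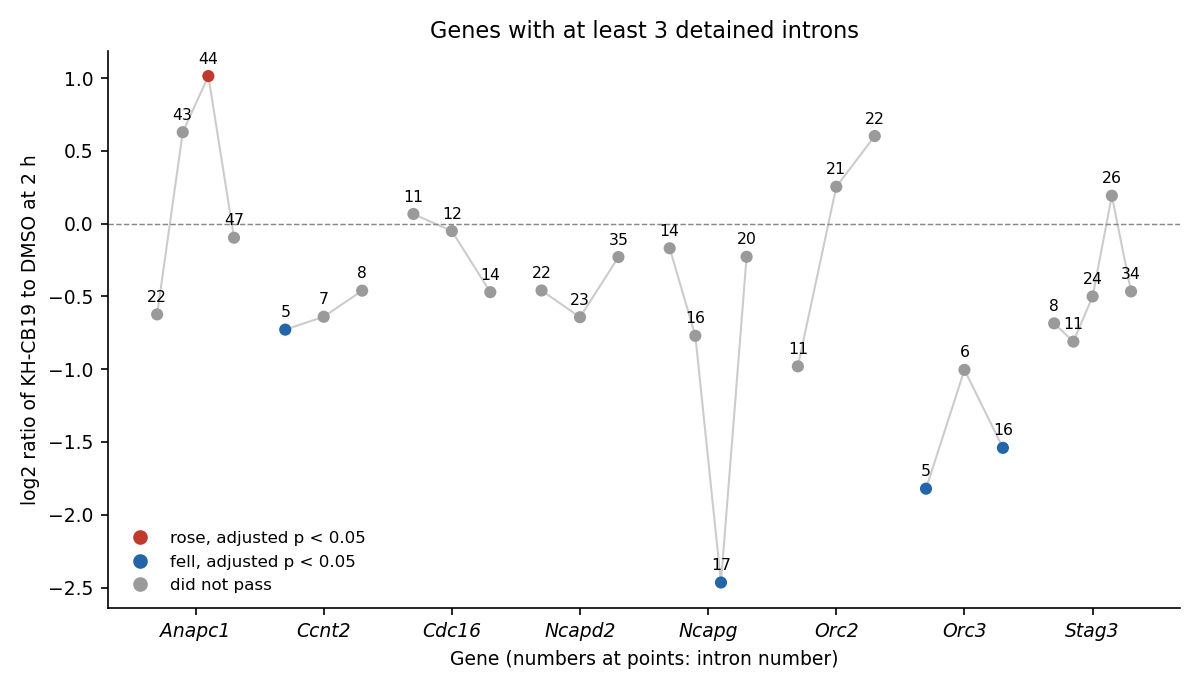
log2 of KH-CB19 over DMSO reads at 2 h (vertical) for each detained intron of the 8 genes with at least 3 of them, joined in transcript order and labelled with the intron number. All points of Ccnt2, Ncapd2, Ncapg and Orc3 lie below 0, and Ncapg intron 17, at −2.47, lies far from the other Ncapg introns.

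The groups at 0 h, harvested as soon as the compound or solvent was added, give the background of the comparison at 2 h. The difference of KH-CB19 from DMSO in log2 observed over expected reads had a median of −0.01 over the 114 detained introns with both values, and it ran from −0.59 to 0.50. At 2 h 9 of the 116 introns differed by more than 2-fold between the treatments, and at 0 h 0 of 114 did on the observed over expected scale. Over all detained introns of the table the counts were 312 of 3454 and 5 of 3422. The contrast between the times is therefore not particular to these genes. The 11 changed introns, chosen by their change at 2 h, had 0 h differences between −0.36 (Cdc25a intron 12) and 0.32 (Anapc1 intron 44). Since 0 h values are set against expected reads and 2 h values are not, the scales differ and no test was made between them.

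**Figure D5:**
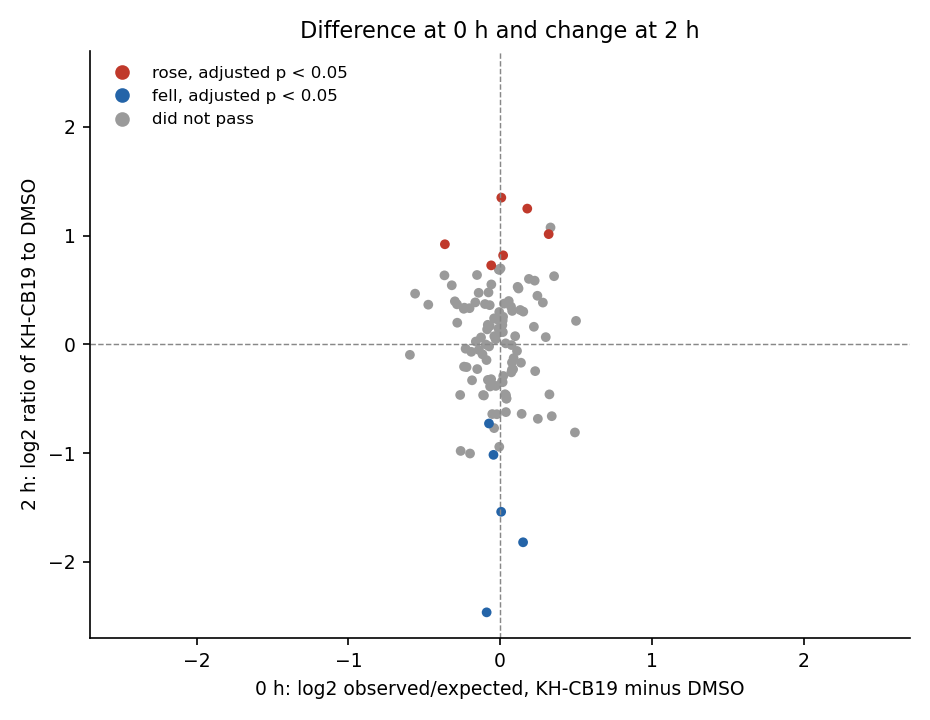
Difference of KH-CB19 from DMSO in log2 observed over expected reads at 0 h (horizontal) against log2 of KH-CB19 over DMSO reads at 2 h (vertical) for the 114 detained introns with both 0 h values, drawn on equal axes. Points spread from −0.59 to 0.50 at 0 h and from −2.47 to 1.35 at 2 h.

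Position and length were not used to choose these introns. Detained introns of these genes had a median length of 1577 bp and the other members 1651 bp, whereas in the rest of the table the medians were 1562 and 2059 bp. Of the matched introns, 95 of 101 detained and 435 of 454 others lay between coding exons. Counted from 0 at the first to 100 at the last intron of the transcript, the detained introns had a median position of 72 and the others of 60, against 73.7 and 56.5 in the rest of the table. Past position 50 lay 74.3% of the detained and 57.5% of the other matched introns. For 17 of the 101 (16.8%) the whole intron lay inside an exon of another GENCODE transcript of the gene, against 39 of 454 others (8.59%), and the rest of the table had 17.1% and 7.51%. These contrasts between detained and other introns had the same direction as in the rest of the table, and none was tested.

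Other genes of the same pathways, which the symbol rule leaves out, came from 4 lists of 129 genes, of which 114 had introns in the table. Of their 87 detained introns 3 rose (3.45%, against 5.47% of all detained introns), 1 fell (1.15%, against 4.17%) and the median log2 ratio was 0.05. Among other replication genes 2 of 35 rose: Dna2 intron 15, in a nuclease and helicase gene, was 2.13-fold higher (adjusted p = 0.00746) per the authors' deposited table. Rpa2 intron 5, in a gene for a protein that coats single-stranded DNA, was 1.86-fold higher (adjusted p = 0.0326) per the authors' deposited table. The chromatin remodeller gene Hells, in the list of other cohesin and chromosome structure genes, rose in intron 18 from 68.6 to 230 reads per the authors' deposited table (adjusted p = 0.000816), 1 of 16 detained introns there. Intron 20 of Kif23, a kinesin of cytokinesis, fell from 279 to 170 reads per the authors' deposited table (adjusted p = 0.0172), 1 of 25 among other spindle checkpoint and kinetochore genes. Of the 11 detained introns of other cell cycle regulators, in 8 genes such as the checkpoint kinase genes Chek1 and Chek2, 0 passed the threshold.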

How the data were processed

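Polyadenylated RNA was sequenced in 8 libraries, 2 in each of 4 groups. The submitters' processing notes name mm9 and, with no roles, DESeq, Cufflinks 2.1.1, TopHat2 2.0.9, bedtools 2.17.0, Bowtie 1.0.0 and SAMtools 0.1.19. Per the file headers the authors deposited for each intron observed and expected mean reads at 0 h (a signal in steps of 0.5), their log2 ratio and an adjusted p-value. For detained introns they deposited a mean normalised read signal at 2 h, its log2 ratio and an adjusted p-value. The deposited p-values are taken to be from the authors' DESeq run; the features they were adjusted over are not given in the sources used here. They are copied, and no new test was made. As the deposited values are group means, the count model planned for values per library was not used. The end minus the start of an intron equals its length, so starts were raised by 1 to count from 1.

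Counts used Python 3.11.15 and pandas 2.3.3. The counting code was tested on simulated data. The members, role lists and pathway lists were chosen with earlier results of these data known. Named introns were those past the 2 h threshold and the detained introns of genes with at least 3 of them. The 3 with the most observed DMSO reads of each role list were also named. So were the 3 highest and 3 lowest ratios at 0 h with at least 100 reads, and changed introns of the pathway lists. Others are further introns of genes named by these rules, belong to genes with no detained intron, or are said to be chosen after their values were seen. All of these others were picked afterwards. Annotation and exon letters came from GENCODE M21 (GRCm38), matched by gene, chromosome, strand and exact length (555 of 601 introns). A match also had to have the distance between starts that was most common in the gene. No coordinate was converted. Of the 11 changed introns 9 matched.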

Additional observations from a re-analysis of the deposited data

How the results depend on the processing

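No paired analysis was possible because the deposited values are group means, and for the same reason no replicate could be left out. The alternatives changed the threshold, the coverage minimum, the unit counted, the genes included, the minimum fold, the pseudocount or the centring. The number of introns that fell went from 5 to 3 at a threshold of 0.01, to 2 with a mean of at least 50 reads at 2 h and to 3 with 1 intron per gene. The number that rose stayed between 4 and 6 and the median log2 ratio, 0.07 at first, lay between 0.06 and 0.17, with 0.16 as a median over genes and 0.17 with a mean of at least 50 reads at 2 h. Introns above expectation at 0 h went from 188 to 143 in DMSO and from 148 to 114 in KH-CB19 at a threshold of 0.01, and to 139 and 106 with at least 10 expected reads. The detained share went from 19.3% to 55.2% among introns with at least 50 observed reads in DMSO at 0 h, where the whole table also had more (42.6%). Leaving out the transcription and splicing cyclins and kinases, an alternative added after seeing the data, gave 5 rises and 4 falls. Depth limits the precision of the falls of Ncapg and Orc3, since Ncapg intron 17 and Orc3 intron 5 had under 10 normalised reads in KH-CB19. Among the rises, Mcm3ap intron 8 and Anapc1 intron 44 had 29.2 and 36.4 normalised reads in DMSO at 2 h.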
